A study of Homo sapiens with 10 samples.

Results

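Oxidative phosphorylation ends the breakdown of fuels in the inner mitochondrial membrane. Complex II (succinate dehydrogenase) passes electrons from succinate to ubiquinone, complex III (cytochrome bc1) passes them to cytochrome c, complex IV (cytochrome c oxidase) hands them to oxygen, and complex V (ATP synthase) uses the proton gradient that results. Every subunit of complex II is encoded in the nucleus, whereas complexes III, IV and V also hold subunits encoded by the mitochondrial genome, so these complexes are built from both sets. The genes described here are the nuclear-encoded structural subunits of complexes II to V. They were taken by name from a list of 39 symbols, by a rule that uses no measured value, although the list was drawn up with earlier results of these data known. Of these, 38 were found among the 40664 genes of the count table, namely 4 of complex II, 9 of complex III, 10 of complex IV and 15 of complex V. COX5B was not analysed here.

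All groups derive from 1 human cell line, hTERT RPE-1, which was made from retinal pigment epithelium by expression of telomerase. The culture surface was soft, with a stiffness of 10 kPa, or stiff, with 120 kPa, and on each surface Control cells were compared with cells given siNemp1, an siRNA directed at NEMP1, which encodes a protein of the nuclear envelope. There were 2 Control and 2 siNemp1 libraries at 10 kPa, and 3 of each at 120 kPa, sequenced after removal of ribosomal RNA. The labels do not describe the control treatment, the siRNA sequence or its duration, and nothing says whether libraries of a group came from separate cultures, so the p-values measure the spread between libraries.

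The libraries held 17.9 to 23.8 M counts each (M, 1000000). NEMP1 itself was at 14.1 and 17.3 counts per 1000000 (CPM, scaled between libraries) in Control and 8.22 and 7.63 CPM in siNemp1 cells at 10 kPa. At 120 kPa it was at 18.3, 14 and 14.1 CPM in Control and 7.52, 6.7 and 4.11 CPM in siNemp1 cells, and the groups did not overlap at either stiffness. Of the epithelial markers, KRT8 lay between 755 and 1205 CPM and KRT18 between 499.6 and 772 CPM, whereas CDH1 and EPCAM were at most 0.162 CPM in any library. Of the pigment epithelium markers, MITF, OTX2 and BEST1 were present at 18.4 to 154 CPM, and RPE65, RLBP1 and LRAT were at most 0.276 CPM. The 6 blood and endothelial markers summed to 1.47 to 3.06 CPM, with CDH5 listed at 0. In these bulk libraries, fewer cells of a type and less RNA per cell cannot be told apart. Muscle, lung and testis forms of complex IV subunits were absent or nearly so: COX4I2, COX6A2, COX7A1, COX7B2 and COX8C were listed at 0 in all 10 libraries, and COX6B2 was at most 0.634 CPM. The subunits described below are the forms used in most tissues.

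Nuclear respiratory genes are known for promoters with sites for the factor NRF1 and for the ETS family factor GABP. RefSeq (GRCh38.p14) gave a window of the 250 bases before the start for 30 of the 38 genes and for 27305 gene symbols in all. The NRF1 letters GCGCANGCG occurred in 11 of the 30 windows (36.7%) and in 7.02% of all windows. The ETS core CCGGAAG occurred in 10 of the 30 windows (33.3%) and in 8.82% of all. One or the other occurred in 17 windows (56.7%, against 14.6% of all). A YY1 site written as AAGATGGCG was in 1 of the 30 windows (3.33%, against 0.641% of all), the GC box GGGCGG in 14 (46.7% against 42.3%) and CCAAT in 11 (36.7% against 33%). All 5 motifs were searched on both strands. None contains another, although matches can share bases. The motif letters, and the genes to print, were chosen after sequences and values had been seen.

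The promoters of 4 genes are shown because they differ in motif content and in passing the knockdown test described below. COX7B, UQCR10 and UQCR11 passed it on the stiff substrate and ATP5PD did not, although its log2 change was near that of UQCR11. Each is printed on the strand of its gene, toward the start, as the longest part of its window without an annotated exon of any gene in GENCODE 29, with matches to any of the 5 motifs in capitals. The positions are chrX:77899218-77899437 (plus strand), chr22:29767119-29767368 (plus strand), chr19:1605491-1605712 (minus strand) and chr17:75046986-75047183 (minus strand).
COX7B: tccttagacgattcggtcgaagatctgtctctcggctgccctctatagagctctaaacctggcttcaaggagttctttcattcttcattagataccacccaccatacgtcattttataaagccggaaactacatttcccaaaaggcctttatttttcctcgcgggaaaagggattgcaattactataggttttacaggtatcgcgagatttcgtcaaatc
UQCR10: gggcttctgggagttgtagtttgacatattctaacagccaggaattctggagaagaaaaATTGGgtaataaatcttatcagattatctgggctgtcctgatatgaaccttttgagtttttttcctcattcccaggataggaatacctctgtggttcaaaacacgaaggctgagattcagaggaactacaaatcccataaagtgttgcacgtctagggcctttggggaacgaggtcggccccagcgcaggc
UQCR11: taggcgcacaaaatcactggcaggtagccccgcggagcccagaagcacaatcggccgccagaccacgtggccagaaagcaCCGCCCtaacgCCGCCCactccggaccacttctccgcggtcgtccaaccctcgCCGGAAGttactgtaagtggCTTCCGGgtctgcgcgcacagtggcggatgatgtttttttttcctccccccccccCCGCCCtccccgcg
ATP5PD: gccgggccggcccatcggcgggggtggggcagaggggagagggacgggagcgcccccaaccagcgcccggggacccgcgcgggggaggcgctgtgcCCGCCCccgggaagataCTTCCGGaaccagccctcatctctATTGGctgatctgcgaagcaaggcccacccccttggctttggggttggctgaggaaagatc
COX7B shows 0 matches, UQCR10 shows 1 CCAAT box on the opposite strand, UQCR11 shows 2 ETS cores and 3 GC boxes, and ATP5PD shows 1 ETS core, 1 GC box and 1 CCAAT box. The 250-base window of UQCR11 also held the NRF1 letters, which do not lie wholly within the printed part. A match describes letters and not a bound site.

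On the stiff substrate, most nuclear subunit genes of all 4 complexes were more abundant in siNemp1 than in Control cells. The log2 change was above zero for 36 of 38 genes, with a median of 0.35 in the fit that keeps the replicate number as a block, against a median of 0.01 over all 13990 tested genes. In that fit 17 of the 38 rose and 0 fell (edgeR's quasi-likelihood test, Benjamini-Hochberg adjusted p under 0.05), where 6.24% of all tested genes rose and 2.51% fell. Same-numbered libraries at 120 kPa deviated together, which is why this fit is given beside the one without the block. The labels do not say whether equal numbers mark a shared culture or day, so a pair here means only an equal number. Without the block 0 of the 38 passed, as did 0 of all tested genes (percentage called 0). In that fit 23 of the 38 had an unadjusted p under 0.05, as did 2413 of all 13990 tested genes. DESeq2 called 6, all higher (1.92% of all genes it tested were higher and 0.794% lower). Without any model, 19 of the 38 were higher in all 3 siNemp1 than in all 3 Control libraries and 0 lower, where 10.9% of all tested genes were higher by this rule and 6.95% lower. The lowest edgeR adjusted p without the block was 0.0511, for SDHD, in the fit to all libraries. In a fit of the stiff libraries alone, also without the block, 0 of the 38 passed (percentage of 13362 tested genes called 0). The edgeR adjusted p of SDHD was 0.397 there, the lowest of the 38. All 38 genes passed the filter on low counts, and the lowest count of any of them in any library was 83, for ATP5F1D. In the rest of this section, "rose" at 120 kPa refers to the fit with the block. The 17 calls depend on which pairs are kept: with the block, 2 members were called higher without the libraries numbered 1 (2.33% of all tested genes), 0 without those numbered 2 (0.0695%) and 16 without those numbered 3 (3.84%). Without the block, leaving out the third Control library at 120 kPa gave 13 calls, all higher (3.43% of all tested genes).

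The summed level of the 38 genes was 6281 ± 1.1 CPM (SD, n = 2) in Control cells at 10 kPa and 7237 ± 379 CPM (SD, n = 2) in siNemp1 cells. At 120 kPa it was 7263 ± 834 CPM (SD, n = 3) in Control and 9129 ± 324 CPM (SD, n = 3) in siNemp1 cells. The 3 Control libraries at 120 kPa were at 6757, 6807 and 8225 CPM and the 3 siNemp1 libraries at 9436, 8791 and 9161 CPM. The groups therefore did not overlap in the sum, but the third Control library lay well above the other 2 and nearer to the siNemp1 libraries.

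**Figure D1:**
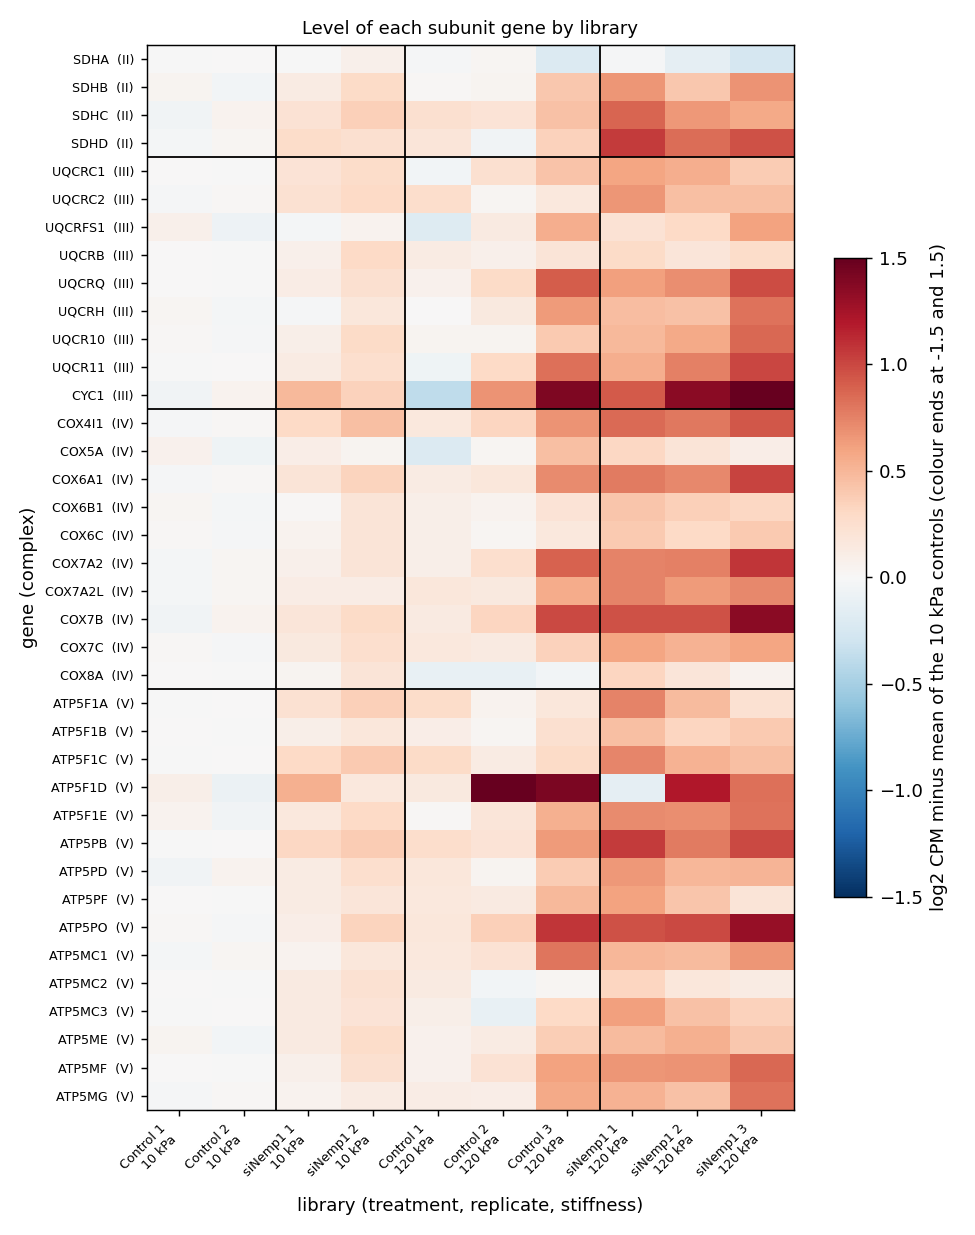
Each row is a gene (complex in brackets) and each column a library; colour is log2 CPM minus the mean of the Control libraries at 10 kPa. The columns of siNemp1 cells at 120 kPa and the third Control library at 120 kPa are red in most rows, SDHA stays near white or blue, and CYC1 and ATP5F1D vary most between libraries.

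In complex II 3 of 4 genes rose. SDHD, a membrane anchor that binds ubiquinone and haem (chromosome 11, 112086773 to 112120013, plus strand, GRCh38), was at 113, 96.1 and 127 CPM in the 3 Control libraries and 205, 178 and 193 CPM in the 3 siNemp1 libraries at 120 kPa. Every siNemp1 library lay above every Control library, and the gene rose 1.73-fold (log2 change 0.79, SE 0.10, edgeR adjusted p = 0.00567). SDHC, the other membrane anchor (chromosome 1, 161314257 to 161375340, plus strand), was at 109.9, 108 and 127 CPM in Control and 171, 147 and 139 CPM in siNemp1 cells, again with no overlap. It rose 1.33-fold (log2 change 0.41, SE 0.11, edgeR adjusted p = 0.0471). SDHB, the iron-sulfur subunit, was at 56.5, 57.6 and 74.1 CPM in Control and 88.5, 73.8 and 88.8 CPM in siNemp1 cells. The third Control library overlapped the lowest siNemp1 library by a narrow margin, and the log2 change was 0.42 (SE 0.11, edgeR adjusted p = 0.0339).

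SDHA, the flavoprotein that oxidises succinate (chromosome 5, 218241 to 256700, plus strand), did not pass. It was at 387, 399.8 and 339.9 CPM in Control and 387, 357 and 329 CPM in siNemp1 cells at 120 kPa, and at 390.0 and 393 CPM in Control and 389.5 and 412 CPM in siNemp1 cells at 10 kPa. The groups overlapped, and its log2 change at 120 kPa was -0.07 (SE 0.09, edgeR adjusted p = 0.687). Pseudogenes of SDHA held counts equal to 6.63% of those of SDHA itself, so a part of its reads could have been shared with them.

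**Figure D2:**
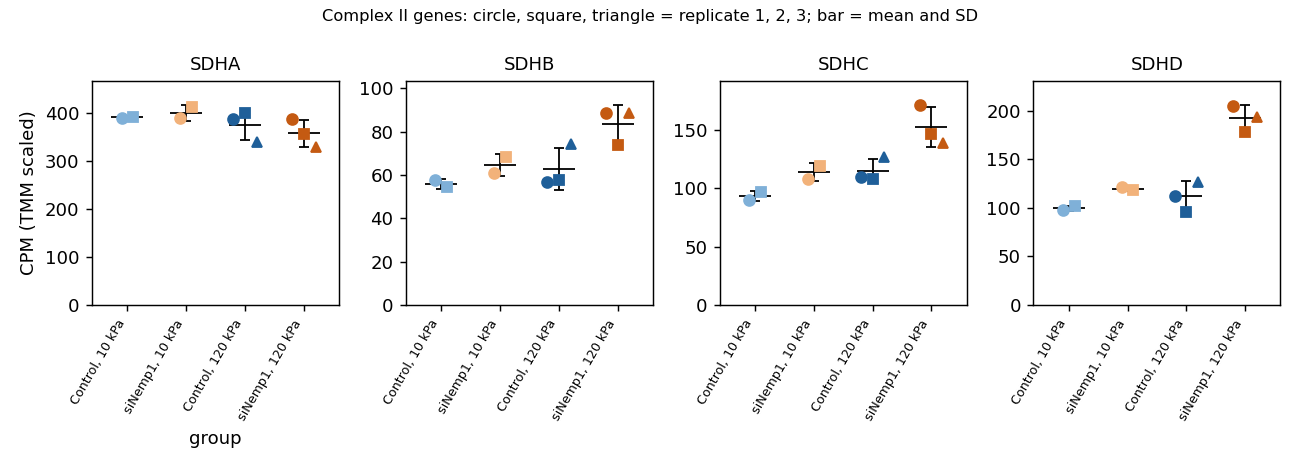
CPM of the 4 complex II genes in each library by group, with circles, squares and triangles for replicates 1, 2 and 3 and bars for the mean and SD; each axis starts at 0. The 3 siNemp1 libraries at 120 kPa stand above all others for SDHD and SDHC, while the groups overlap for SDHA.

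In complex III, 3 of 9 genes rose. UQCR10, a small accessory subunit (chromosome 22, 29767369 to 29770413, plus strand), was at 85.5, 85.6 and 109 CPM in Control and 116, 123 and 152 CPM in siNemp1 cells at 120 kPa. Its groups did not overlap, and the log2 change was 0.48 (SE 0.09, edgeR adjusted p = 0.0115). UQCRC2, one of the large core proteins facing the matrix, was at 177, 149.5 and 164 CPM in Control and 233, 202 and 201 CPM in siNemp1 cells, with a log2 change of 0.37 (SE 0.10, edgeR adjusted p = 0.038). UQCR11, whose promoter is printed above, was at 73.4, 94.3 and 136 CPM in Control and 111, 129 and 153 CPM in siNemp1 cells. The third Control library lay above both of the lower siNemp1 libraries, and the call (log2 change 0.40, edgeR adjusted p = 0.0387) rests on the differences between same-numbered libraries.

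CYC1 and UQCRFS1, the nuclear-encoded catalytic subunits of complex III, did not pass in this fit. CYC1, which carries the haem of cytochrome c1, was at 42.1, 87.2 and 145 CPM in Control and 104, 139 and 177 CPM in siNemp1 cells at 120 kPa. It was lowest in the first and highest in the third library of both groups, and its log2 change of 0.73 (SE 0.24, edgeR adjusted p = 0.111) had the largest error of the complex. CYC1 passed with the block in a fit of the 6 stiff libraries alone (edgeR adjusted p = 0.0287), with the block and length and GC trends removed (0.00224), and without the block when no filter on low counts was used (0.00545). Without the block its log2 change was 0.62, and 0.27 without the first and 1.11 without the third Control library. UQCRFS1, the Rieske iron-sulfur protein, was at 41.2, 51.5 and 68.8 CPM in Control and 54.9, 57.9 and 71.5 CPM in siNemp1 cells (log2 change 0.21, edgeR adjusted p = 0.271). UQCRC1, the other core protein, was at 538, 651 and 743 CPM in Control and 829.9, 803 and 722 CPM in siNemp1 cells (log2 change 0.29, edgeR adjusted p = 0.149). The smallest log2 change of the complex was that of UQCRB, 0.12 (SE 0.09, edgeR adjusted p = 0.49), with 116, 112 and 121 CPM in Control and 129, 119.9 and 129 CPM in siNemp1 cells. UQCRQ and UQCRH, an accessory subunit and the hinge protein between cytochromes c1 and c, had log2 changes of 0.35 and 0.31, with edgeR adjusted p of 0.0662 and 0.0706. The near-identical UQCRH copy UQCRHL held 146 counts over all libraries against 16031 for UQCRH.

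In complex IV, 6 of 10 genes rose. COX7B, a small membrane subunit (chromosome X, 77899438 to 77907373, plus strand), was at 40.9, 46.3 and 73.8 CPM in Control and 72.3, 72.1 and 95 CPM in siNemp1 cells at 120 kPa. The third Control library just exceeded the lower siNemp1 libraries, and the gene rose 1.52-fold (log2 change 0.61, SE 0.10, edgeR adjusted p = 0.00971). COX6A1, a form found in most tissues, was at 325, 336 and 486 CPM in Control and 509, 492 and 599.6 CPM in siNemp1 cells, with no overlap and a log2 change of 0.50 (SE 0.10, edgeR adjusted p = 0.0138). COX4I1, among the first nuclear subunits to join the core during assembly, was at 476, 533 and 679.7 CPM in Control and 771, 741 and 813 CPM in siNemp1 cells, likewise with no overlap. Its log2 change was 0.48 (SE 0.10, edgeR adjusted p = 0.019).

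COX5A, which joins the core together with COX4I1, did not pass. It was at 36.1, 42.6 and 57.2 CPM in Control and 51.9, 47.8 and 44.6 CPM in siNemp1 cells, and the groups overlapped fully, with a log2 change of 0.10 (SE 0.14, edgeR adjusted p = 0.716). The related genes COX7A2, a subunit of the enzyme, and COX7A2L, which links complexes III and IV in supercomplexes, both rose. COX7A2 was at 64.4, 72.4 and 112 CPM in Control and 102, 103 and 128 CPM in siNemp1 cells (log2 change 0.45, SE 0.10, edgeR adjusted p = 0.0233). COX7A2L was at 89.5, 88.2 and 117 CPM in Control and 133, 124 and 131 CPM in siNemp1 cells (log2 change 0.41, SE 0.10, edgeR adjusted p = 0.0298). COX7A2L did not overlap between the groups, whereas the third Control library of COX7A2 lay above 2 of the siNemp1 libraries. COX7C rose as well, by a log2 change of 0.35 (edgeR adjusted p = 0.0317). COX6B1, COX6C and COX8A, further small subunits, had no overlap between groups but did not pass, with log2 changes of 0.25, 0.27 and 0.27 and edgeR adjusted p of 0.127, 0.0885 and 0.104.

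In complex V, 5 of 15 genes rose, and 2 of them belong to the peripheral stalk that holds the catalytic head still. ATP5PB, subunit b of that stalk (chromosome 1, 111448864 to 111462773, plus strand), was at 162, 155 and 210.3 CPM in Control and 279.5, 232 and 269 CPM in siNemp1 cells at 120 kPa. The groups did not overlap, and the gene rose 1.49-fold (log2 change 0.57, SE 0.10, edgeR adjusted p = 0.0115). ATP5PO, the OSCP subunit that joins the stalk to the head, was at 104, 118 and 194 CPM in Control and 179, 182 and 228 CPM in siNemp1 cells. The third Control library lay above both of the lower siNemp1 libraries, and the gene rose by a log2 change of 0.55 (SE 0.11, edgeR adjusted p = 0.0169). The other stalk genes, ATP5PD (whose promoter is printed above) and ATP5PF, had log2 changes of 0.35 and 0.15 and edgeR adjusted p of 0.0623 and 0.539. For ATP5PD the groups did not overlap. ATP5PF was at 80.3, 78.7 and 101 CPM in Control and 109, 96.2 and 82.4 CPM in siNemp1 cells, and the third pair ran against the other 2.

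The catalytic head gave a mixed picture. ATP5F1E, the epsilon subunit of the central stalk, was at 111, 125 and 159 CPM in Control and 181, 178 and 194 CPM in siNemp1 cells, with no overlap and a log2 change of 0.50 (SE 0.10, edgeR adjusted p = 0.0164). The catalytic beta subunit ATP5F1B, at 993, 945 and 1101 CPM in Control and 1274, 1162 and 1220.1 CPM in siNemp1 cells, did not overlap but did not pass (log2 change 0.27, edgeR adjusted p = 0.0981). The alpha subunit ATP5F1A, at 664, 566 and 617 CPM in Control and 914, 757 and 639 CPM in siNemp1 cells, overlapped between groups (log2 change 0.31, edgeR adjusted p = 0.12). The gamma subunit ATP5F1C had a log2 change of 0.34 (edgeR adjusted p = 0.058). ATP5F1D, the delta subunit, had the lowest counts of the set and was the only one of the 38 besides SDHA below zero. It was at 5.25, 14 and 12.6 CPM in Control and 4.33, 10.9 and 8.39 CPM in siNemp1 cells, with overlapping groups and a log2 change of -0.42 (SE 0.36, edgeR adjusted p = 0.534).

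The membrane part of complex V holds a ring of c subunits, which 3 genes encode as the same mature protein. ATP5MC1 was at 73.6, 76.6 and 115 CPM in Control and 93.3, 91.5 and 104 CPM in siNemp1 cells, ATP5MC2 at 472, 415 and 437 and 537, 479.7 and 466 CPM, and ATP5MC3 at 121, 106 and 141 and 175, 155 and 146 CPM. ATP5MC3 alone of the 3 had no overlap between groups. None of the 3 passed, with log2 changes of 0.15, 0.16 and 0.37 and edgeR adjusted p of 0.423, 0.313 and 0.0663. The coding sequences of such paralogs can share reads, so their separate values are less certain. Of the small membrane subunits, ATP5MF and ATP5MG rose (log2 changes 0.43 and 0.33, edgeR adjusted p = 0.0201 and 0.0392). For ATP5MG the third Control library, at 175 CPM, lay above 2 of the siNemp1 libraries, at 169 and 159 CPM. ATP5ME, subunit e, had a log2 change of 0.28 (edgeR adjusted p = 0.124).

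**Figure D3:**
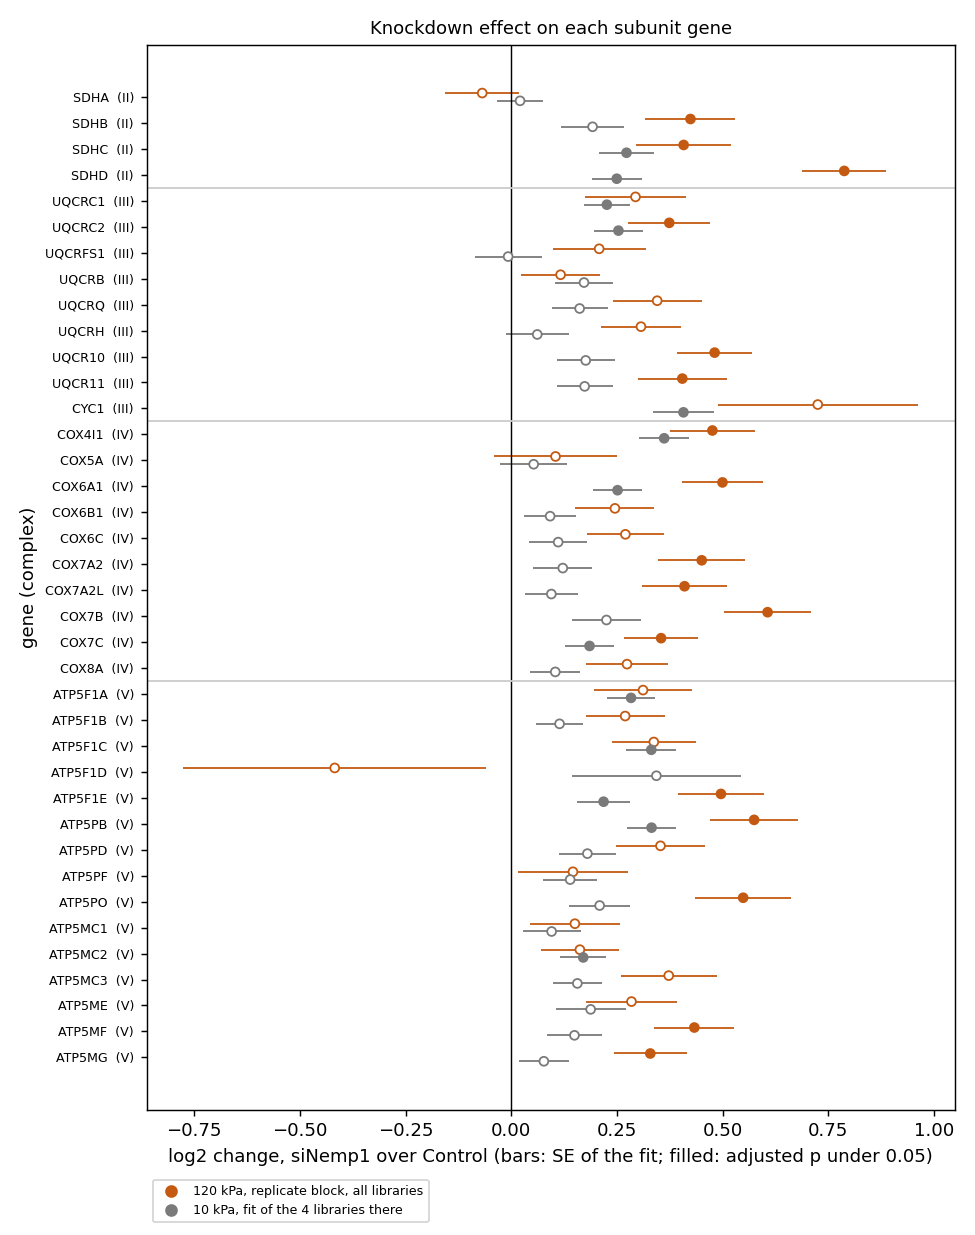
Log2 change of each gene, siNemp1 over Control, with the standard error of the fit as a bar and filled points for an adjusted p under 0.05; orange points are 120 kPa (fit with the replicate block) and grey points 10 kPa (fit of the 4 libraries there). All orange points but SDHA and ATP5F1D lie right of zero, and 17 orange and 13 grey points are filled.

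Of the 15 genes with a promoter window that rose at 120 kPa, 4 held the NRF1 letters, 4 the ETS core, 7 the GC box and 5 the CCAAT box. Of the 15 genes with a window that did not pass, 7 held the NRF1 letters, 6 the ETS core, 7 the GC box and 6 the CCAAT box. COX7B and UQCR10, among the genes with the lowest adjusted p, held neither NRF1 letters nor an ETS core, whereas SDHD held both and SDHA held NRF1 letters. A relation between motif letters and the knockdown calls was not tested.

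Each siNemp1 library was then set against the Control library of the same number. At 120 kPa 36 of 38 genes were higher in siNemp1 cells in the first pair, 36 in the second and 32 in the third. The median log2 differences were 0.47, 0.41 and 0.17, while 54.2%, 49.4% and 50.1% of all tested genes were higher in these pairs. At 10 kPa 34 and 38 of the 38 were higher, with medians of 0.12 and 0.24, while 51.7% and 48.1% of all tested genes were higher. The smaller difference in the third stiff pair went with a higher Control library. In Control cells 33 of 38 genes were higher in the third than in the first library, with a median log2 difference of 0.38 (51.9% of all tested genes were higher), whereas in siNemp1 cells 18 were higher and the median was -0.01 (50.2% of all tested genes). The share of all counts from mitochondrial-genome genes was 1.73, 1.4 and 0.913% in the 3 Control libraries at 120 kPa and 1.06, 0.827 and 0.709% in the 3 siNemp1 libraries, lowest in the third of each group. The mitochondrial ribosomal RNA genes MT-RNR1 and MT-RNR2, a part of this share, held 0.395, 0.304 and 0.229% of the counts of the stiff Control libraries against 0.255, 0.237 and 0.164% for stiff siNemp1 libraries. On the soft substrate they held 0.404 and 0.392% with Control and 0.323 and 0.322% with siNemp1 treatment. Their share was lower in siNemp1 cells in all 5 pairs. The other genes named as ribosomal RNA held at most 1.75e-05% of a library. The part of these shares in the values above was not tested.

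**Figure D4:**
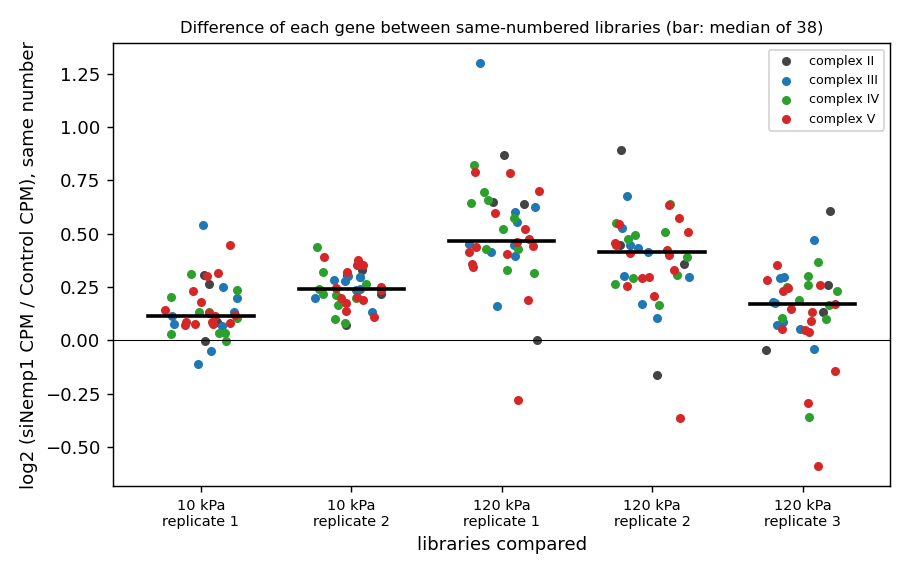
Each point is 1 of the 38 genes, coloured by complex, and gives log2 CPM in siNemp1 minus Control between libraries of the same number; the bar is the median. The medians lie above zero in all 5 pairs and highest in the first pair at 120 kPa.

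On the soft substrate most of the 38 genes were also more abundant in siNemp1 than in Control libraries. In siNemp1 cells 33 of 38 genes were higher in both libraries than in both Control libraries and 0 lower, where 28.8% of all tested genes were higher by this rule and 28.5% lower. In edgeR's fit to all libraries 0 of the 38 passed (percentage of all tested genes called 0), and DESeq2 called 0 as well. In the edgeR fit 2 of the 38 and 850 of all 13990 tested genes had an unadjusted p under 0.05. The median log2 change of the 38 in that fit was 0.19. Without the second siNemp1 library at 10 kPa that median was 0.11. With the replicate block 0 passed too (0.0143% of all genes rose and as many fell). A fit of the 4 libraries at 10 kPa alone called 13 of the 38 higher and 0 lower, where 8.1% of 13345 tested genes were called higher and 9.19% lower. The common dispersion, a measure of variation between libraries, was 0.00423 in that fit, 0.0387 over all libraries and 0.0525 for the libraries at 120 kPa alone.

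Among the 13 genes called in the 4 soft libraries, the largest change was that of CYC1. It was at 52.9 and 56.6 CPM in Control and 76.9 and 69.5 CPM in siNemp1 cells (log2 change 0.41, SE 0.07, edgeR adjusted p = 0.000435). COX4I1 was at 424 and 431 CPM in Control and 526 and 584 CPM in siNemp1 cells (log2 change 0.36, SE 0.06, edgeR adjusted p = 0.000185). ATP5PB was at 135 and 135 CPM in Control and 167 and 175 CPM in siNemp1 cells (log2 change 0.33, SE 0.06, edgeR adjusted p = 0.000338). The groups did not overlap for any of these 3. ATP5F1C, the gamma subunit, was at 108 and 108 CPM in Control and 133 and 142 CPM in siNemp1 cells (log2 change 0.33, SE 0.06, edgeR adjusted p = 0.000495). The others were ATP5F1A, SDHC, UQCRC2, COX6A1, SDHD, UQCRC1, ATP5F1E, COX7C and ATP5MC2. SDHD was at 97.7 and 101 CPM in Control and 121 and 118 CPM in siNemp1 cells, a log2 change of 0.25. UQCRFS1 was the gene nearest zero, at 49.8 and 44.6 CPM in Control and 46 and 48.9 CPM in siNemp1 cells.

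Of the 17 genes that rose at 120 kPa, 8 were also among the 13 called in the 4 soft libraries: SDHC, SDHD, UQCRC2, COX4I1, COX6A1, COX7C, ATP5F1E and ATP5PB. These calls come from unlike fits, all libraries with the block and the 4 soft libraries alone. The share of all tested genes called in both was not counted, so the overlap is given only as a list. The difference between the knockdown effects on the stiff and the soft substrate was tested as an interaction, and 0 of the 38 genes passed (0.00715% of all tested genes did). DESeq2 also called 0, and 1 of the 38, SDHD, had an unadjusted p under 0.05. Its interaction was 0.52 (SE 0.19, edgeR adjusted p = 1.000). ATP5F1D lay at the other end, at -0.79 (SE 0.61, edgeR adjusted p = 1.000). It was at 5.02 and 4.48 CPM in Control and 6.84 and 5.3 CPM in siNemp1 cells at 10 kPa, higher in both soft pairs and lower in all 3 stiff pairs. A larger knockdown effect on either substrate was therefore not shown for any subunit.

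Averaged over both substrates, SDHD passed edgeR's test without the block and the other 37 members did not. DESeq2 called 8 of the 38, all higher, where 2.47% of all genes it tested were higher and 1.61% lower. In edgeR's test without the block, leaving out the third Control library at 120 kPa gave 12 calls, all higher. In that fit 3.27% of all tested genes were higher and 1.52% lower. For SDHD the average log2 change was 0.52 (SE 0.09, edgeR adjusted p = 0.0442), in a fit where 0.858% of all tested genes were called higher and 0.429% lower. With the block 16 of the 38 were called higher and 0 lower, where 6.58% of all tested genes were higher and 4.17% lower, and SDHD again had the lowest edgeR adjusted p, 0.00798. ATP5PB and COX4I1 followed, with average log2 changes of 0.46 and 0.42.

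Stiffness alone was compared in each treatment. In Control cells 24 of 38 genes were higher in all 3 stiff than in both soft libraries and 1, COX8A, lower, where 10.3% and 11.9% of all tested genes were. No member passed the test (0.0143% of all tested genes fell and 0 rose), DESeq2 called 0, and the median log2 change was 0.23. Without the third Control library at 120 kPa that median was 0.12. In siNemp1 cells 31 genes were higher on the stiff substrate without overlap and 1, SDHA, lower, where 18.2% and 15.5% of all tested genes were. No member passed edgeR's test there (percentage of all tested genes called 0), and the median log2 change was 0.37. DESeq2 called 5 higher (0.336% of all genes it tested were higher and 0.0085% lower). SDHD had the smallest p, at 121 and 118 CPM on the soft and 205, 178 and 193 CPM on the stiff substrate, a log2 change of 0.69 that did not pass (SE 0.13, edgeR adjusted p = 0.315). These comparisons share their groups with the knockdown comparisons and are not independent of them.

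Other nuclear genes of the same machinery were examined next. Of 36 assembly factors of complexes II to V, 34 were tested. At 120 kPa 11 rose and 0 fell in the fit with the block, where 6.24% of all tested genes rose and 2.51% fell. The 4 with the smallest p were COA3, COX20, COA5 and SDHAF2, which help to build complex IV (the first 3) or flavinate SDHA. Their log2 changes were 0.58, 0.60, 0.69 and 0.46, with edgeR adjusted p of 0.00807, 0.00971, 0.0132 and 0.0198. Of 8 tested carriers and late-recognised subunits, 5 rose and 0 fell. HIGD1A, a small factor bound to complex IV, was at 67.7, 57.4 and 93.3 CPM in Control and 106, 104 and 128 CPM in siNemp1 cells (log2 change 0.65, edgeR adjusted p = 0.00827). NDUFA4, a complex IV subunit despite its name, was at 51.6, 66.6 and 129 CPM in Control and 99.8, 117 and 162 CPM in siNemp1 cells (log2 change 0.69, edgeR adjusted p = 0.0101). The ATP synthase subunits ATP5MJ and ATP5MK had log2 changes of 0.45 and 0.43 (edgeR adjusted p = 0.0195 and 0.026), and CYCS, cytochrome c itself, one of 0.40 (edgeR adjusted p = 0.0298). Without the block 0 of the 34 assembly factors and 0 of the 8 carriers and subunits passed, as did 0 of all tested genes. ATP5IF1, SURF1 and CMC2 were not analysed here.

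At 120 kPa the mitochondrial-genome subunits of the same complexes were lower in siNemp1 than in Control cells. All 6 (MT-CYB of complex III, MT-CO1, MT-CO2 and MT-CO3 of complex IV, MT-ATP6 and MT-ATP8 of complex V) fell in the fit with the block, with a median log2 change of -0.61. In that fit 6.24% of all tested genes rose and 2.51% fell. MT-CO3 was at 1077, 852 and 548 CPM in Control and 654, 530.0 and 408 CPM in siNemp1 cells (log2 change -0.61, edgeR adjusted p = 0.0137). MT-ATP6 was at 975, 791 and 509.7 CPM in Control and 594, 467 and 395 CPM in siNemp1 cells (log2 change -0.61, edgeR adjusted p = 0.0156). MT-CO1, the catalytic core of complex IV, was at 3647, 3142 and 1564 CPM in Control and 2745, 1429.8 and 974 CPM in siNemp1 cells (log2 change -0.72, edgeR adjusted p = 0.0262). The third Control library was below the first siNemp1 library for each of these 3, so the groups overlapped. MT-ATP8, which overlaps MT-ATP6 on the mitochondrial genome, had a log2 change of -0.79 (edgeR adjusted p = 0.0173). Without the block 0 of the 6 passed and 5 had an unadjusted p under 0.05, as did 2413 of all 13990 tested genes. At 10 kPa 1 of the 6, MT-CO1, had a log2 change above zero in the fit to all libraries, and the median was -0.13. MT-CO1 was at 3508 and 3002 CPM in Control and 4197 and 4393 CPM in siNemp1 cells, higher without overlap. In the fit of the 4 soft libraries 8.1% of all tested genes were called higher and 9.19% lower. MT-CO1 rose in that fit (log2 change 0.39, edgeR adjusted p = 0.00073), while MT-CO3 and MT-ATP6 fell (log2 changes -0.24 and -0.19, edgeR adjusted p = 0.00638 and 0.0312). The summed level of the 6, of which MT-CO1 was the largest part, was 7747 to 8274 CPM in Control cells there. It was 8368 to 9019 CPM in siNemp1 cells, and 0 of the 6 passed in the fit to all libraries.

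**Figure D5:**
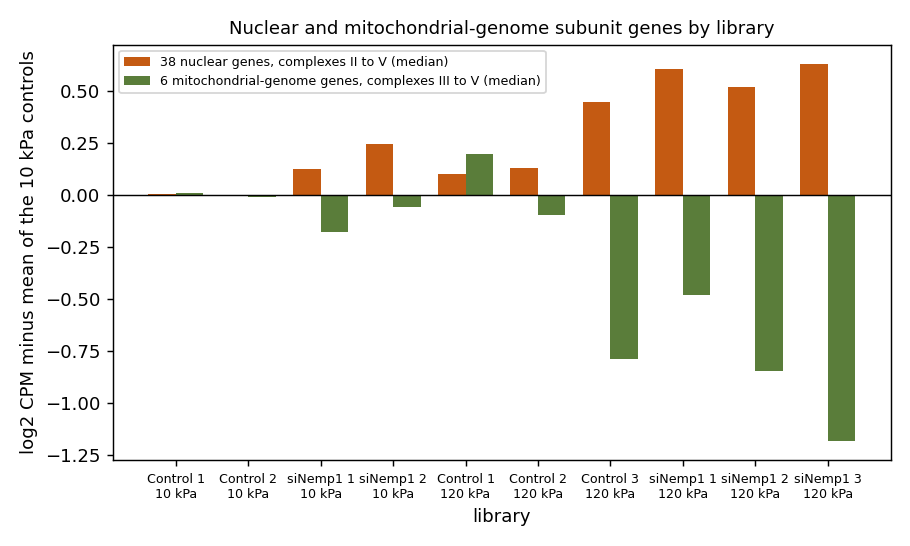
Bars give, for each library, the median log2 CPM minus the mean of the Control libraries at 10 kPa over the 38 nuclear genes (orange) and the 6 mitochondrial-genome genes (green). The 3 siNemp1 libraries and the third Control library at 120 kPa combine the highest orange with the lowest green bars.

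Regulators of mitochondrial genes and general mitochondrial genes were examined as well. Of 13 transcriptional regulators 1 rose and 0 fell at 120 kPa with the block, where 6.24% of all tested genes rose and 2.51% fell. The gene was TFB2M, a mitochondrial transcription factor, with a log2 change of 0.54 (edgeR adjusted p = 0.0396). TFAM, which packages mitochondrial DNA, had a log2 change of 0.48 (edgeR adjusted p = 0.0556). PPRC1, a coactivator of the same family as PPARGC1A, had one of -0.28 (edgeR adjusted p = 0.0841), and GABPB1, a subunit of GABP, one of 0.35 (edgeR adjusted p = 0.13). Of 17 genes for import, matrix, inner membrane and outer membrane proteins 1 rose and 0 fell, against the same shares of all tested genes. The gene was TOMM22, an import receptor, with a log2 change of 0.59 (edgeR adjusted p = 0.0196). TIMM23, the inner membrane import channel, had a log2 change of 0.29 (edgeR adjusted p = 0.0988), and PHB2, a prohibitin, one of 0.33 (edgeR adjusted p = 0.125). CS, citrate synthase, had a log2 change of -0.31 (edgeR adjusted p = 0.103). Without the block 0 of the 13 regulators and 0 of these 17 genes passed. Of the cell type markers, 0 of 2 epithelial and 0 of 5 pigment epithelium genes passed at 120 kPa, and 1 of 5 tested fibroblast markers, THY1, fell (log2 change -0.73, edgeR adjusted p = 0.0196). The 7 fibroblast markers summed to 689.8 to 908 CPM in Control and 314 to 736 CPM in siNemp1 cells at 120 kPa, with COL3A1 listed at 0. In the fit of the 4 soft libraries, KRT18 (log2 change -0.27) and the fibroblast markers THY1 (-0.38) and DCN (-0.34) fell, and the pigment epithelium marker MITF rose (0.27), with edgeR adjusted p of 0.00152, 5.4e-05, 0.0387 and 0.00213. Of all tested genes 8.1% were called higher and 9.19% lower in that fit. The 7 fibroblast markers summed to 948 to 950.2 CPM in Control and 765 to 766 CPM in siNemp1 cells at 10 kPa. Most of each sum was THY1, with means of 832 CPM in Control and 647 CPM in siNemp1 cells. Of the 5 fibroblast markers tested in the soft libraries, 3 had a log2 change above zero (median 0.035). The part of these marker differences in the subunit values was not tested.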

How the data were processed

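RNA was sequenced in 10 libraries of hTERT RPE-1 cells, grouped by the treatment and stiffness in their titles. Per the labels' protocols, ribosomal RNA was removed and RNA was reverse transcribed with random hexamers. Per the submitters' processing notes, FastQC 0.11.9, Trimmomatic 0.33, Salmon 1.80 (as written there), edgeR and the GRCh38 build were used. None of these sources gives the transcript annotation, the step from transcripts to genes or the strandedness. The authors deposited expected counts (estimated counts per gene, not normalized), which were rounded to whole numbers here.

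Genes were filtered with filterByExpr (13990 of 40664 left), scaled by TMM and tested with edgeR 4.0.16 (limma 3.58.1, R 4.3.3) in a robust quasi-likelihood model with 1 mean per group and 6 residual degrees of freedom. Tests were two-sided, with p-values adjusted by Benjamini-Hochberg across the whole table and calls made at an adjusted p under 0.05. SE is the size of the log2 change divided by the square root of the quasi-likelihood F. The alternative with the replicate number as a block left 4 residual degrees of freedom and fitted 1 effect per number over both stiffnesses. The numbers come from the titles, and the labels do not say whether equal numbers mark a shared culture or day. Deviations of same-numbered libraries from their group means correlated at r = 0.426, 0.157 and 0.359 at 120 kPa, where all exceed 0.1, and at 0.0171 at 10 kPa. Other alternatives were DESeq2 1.42.0, other scalings and filters, only the groups compared, length and GC trends removed as offsets (mgcv 1.9.3; values for 98.8% of tested genes and all 38 members) and libraries left out. The code was tested on simulated data.

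The members have a median transcript length of 625.8 bases against 1016 for all tested genes and a median GC content of 48.2% against 49.3% (GENCODE 29, GRCh38), and 122 pseudogene rows held 0.342% of the members' counts. The members, the 10 gene lists and the tests were chosen with earlier results of these data known. Values per library are given by rule for a core set, the paralogs ATP5MC1, ATP5MC2 and ATP5MC3, the pair COX7A2 and COX7A2L, and per complex the 2 smallest p and the smallest change at 120 kPa with the block. In the other comparisons up to 4 called members with the largest change are given, and in each list up to 4 genes with the smallest p. CYCS, MT-CO2, MT-CYB, ATP5PO, ATP5MG, SDHC, UQCR11 and ATP5F1D, the list genes given at 10 kPa, and the other genes given only by their change, were added after their values were seen.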

Additional observations from a re-analysis of the deposited data

How the results depend on the processing

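The median log2 change of the 38 members kept its sign under every alternative run for the 6 comparisons. It moved by over 1.5 times in some. At 10 kPa (0.19) it was 0.109 to 0.256 when 1 library was left out, lowest without the second siNemp1 library, and 0.0996 with the block without replicate 2. For the difference of knockdown effects (0.15) it was 0.076 (without the first soft siNemp1 library) to 0.247 (without the third stiff Control library), 0.0884 without the third stiff siNemp1 library, 0.102 with upper-quartile scaling and 0.00736 with the block without replicate 1. For stiffness it was 0.196 in siNemp1 cells (0.37) with the block without replicate 1, and in Control cells (0.23) 0.118 without the third stiff Control library, 0.115 with the block and only the groups compared, 0.145 with the block and length and GC trends removed and 0.133 with the block without replicate 3.

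Every member called under any setting was called higher, and each percentage in brackets is the share of all tested genes called higher in the same fit. For knockdown at 120 kPa, where the fit without the block called 0, the replicate block called 17 (6.24%), with only the groups compared 17 (5.98%), with upper-quartile scaling 12 (4.61%), with length and GC trends removed 16 (7.38%), 2 (2.33%) without replicate 1 and 16 (3.84%) without replicate 3. Without the block, DESeq2 called 6 (1.92%), no filter 5 (1.86%), a filter of 5 CPM in 2 libraries 1 (0.951%), and leaving out 1 library 0 to 13 (3.43% without the third Control library). For knockdown at 10 kPa, only the groups compared gave 13 without (8.1%) and with the replicate block (7.66%). For stiffness in Control cells, no filter gave 2 (0.497%) and the block without replicate 1 gave 1 (0.321%). For stiffness in siNemp1 cells, DESeq2 gave 5 (0.336%), no filter 11 (1.94%), the block with only the groups compared 6 (1.52%), and the block without replicate 1 or 3 gave 1 (0.69%) and 4 (0.582%). For the average knockdown, with 1 call (0.858%), the replicate block gave 16 (6.58%), DESeq2 8 (2.47%), RLE scaling 0, no filter 5 (1.62%), the 5 CPM filter 2 (1.95%), the block with upper-quartile scaling 14 (5.28%), the block after removal of length and GC trends 16 (8.06%), the block without replicate 2 or 3 gave 0 (0.0556%) and 23 (6.86%), and leaving out 1 library 0 to 12 (3.27% without the third stiff Control library). The difference of knockdown effects had 0 calls under every alternative run.

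Over the 23 alternatives run for each of the 38 members at 120 kPa, the log2 change of 3 members changed sign. It turned below zero for UQCRB with the block and length and GC trends removed (-0.0139), for COX5A with the block without replicate 1 (-0.115), and for ATP5PF with the block without replicate 1 (-0.0184). Leaving out 1 library moved COX5A between -0.0594 (without the first Control library at 120 kPa) and 0.275 (without the third). The cause of these moves was not tested. Only the groups compared could not be given for the difference and the average, which use all 4 groups. With 2 or 3 libraries a group, the parts of library number and depth in the errors were not separated.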
